A study of Homo sapiens with 12 samples.

Results

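KLF9 and 9 further Krüppel-like factors, 10 genes of 18239 measured, were followed in xenograft tumors of the human mantle cell lymphoma line JEKO-1. The 12 tumors, 3 in each of 4 groups, each gave 1 Affymetrix HT HG-U219 array. Control mice received vehicle, and the other groups received acadesine at 400 mg/kg, weekly rituximab (10 mg/kg), or the 2 agents together, and tumors were harvested at day 18. The sample labels give acadesine daily, while the methods leave out some days of each week. All mice were female CB17-SCID animals of 6 to 8 weeks, without working lymphocytes of the B and T lineages, and carried the same single cell line under the skin of the flank in Matrigel. The tumors were taken as representative ones of each cohort, and mouse stroma and vessels remain part of such a tumor. Acadesine (AICAR) is a nucleoside whose phosphorylated form activates the kinase AMPK. Rituximab binds the B cell surface protein CD20.

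Krüppel-like factors (KLFs) are transcription factors with 3 zinc fingers at the carboxyl end, which bind GC boxes and CACCC boxes in DNA. The family is commonly divided by the partners of the amino-terminal part. KLF9, KLF10, KLF11, KLF13 and KLF16 recruit the SIN3 corepressor, KLF3 and KLF12 recruit the corepressor CtBP, and KLF2, KLF4 and KLF6 act mainly as activators. In lymphocytes KLF2 and KLF4 are known for keeping cells at rest, and KLF2 also for the control of homing receptors. Each gene was read by the brightest of its single-gene probe sets, chosen by the mean over the 12 tumors of all groups. The members were chosen with earlier results of these data known, among them the fall of KLF9 after acadesine, so their counts and tests against control are given as a description. Of the 35 single-gene probe sets of the 10 genes, 20 had a mean log2 signal above 5 and 15 a mean at or below 5. KLF3 and KLF4 had no probe set above that level.

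Promoter windows of 250 bases before an annotated start were read from RefSeq (GRCh38.p14) for 8 of the 10 genes, with 12 windows in all. Those of KLF9 and KLF11, which fell with the combination, and of KLF12, which had a probe set that rose, are shown because KLF factors bind the GC and CACCC boxes that such windows can hold. KLF11 and KLF12 have several windows. The KLF11 window shown was picked for holding a cAMP response element and the KLF12 window for holding GC boxes. Capitals mark motifs read on both strands, which can overlap. These are the GC box with the letters GGGCGG, the CACCC and CCAAT boxes named by their letters, the cAMP response element with the letters TGACGTCA, and the E-box with the letters CACGTG.
KLF9, chr9:70414658-70414907, minus strand: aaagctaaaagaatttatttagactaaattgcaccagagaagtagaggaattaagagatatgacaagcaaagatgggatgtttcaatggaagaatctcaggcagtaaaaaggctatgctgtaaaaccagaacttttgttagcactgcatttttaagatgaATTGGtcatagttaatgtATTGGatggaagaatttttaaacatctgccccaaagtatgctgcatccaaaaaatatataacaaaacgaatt
KLF11, chr2:10043971-10044220, plus strand: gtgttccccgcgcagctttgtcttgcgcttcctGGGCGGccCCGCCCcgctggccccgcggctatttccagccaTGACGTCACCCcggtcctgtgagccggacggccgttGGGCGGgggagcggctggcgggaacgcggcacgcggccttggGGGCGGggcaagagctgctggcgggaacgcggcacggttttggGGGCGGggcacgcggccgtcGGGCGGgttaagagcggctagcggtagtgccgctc
KLF12, chr13:74134405-74134654, minus strand: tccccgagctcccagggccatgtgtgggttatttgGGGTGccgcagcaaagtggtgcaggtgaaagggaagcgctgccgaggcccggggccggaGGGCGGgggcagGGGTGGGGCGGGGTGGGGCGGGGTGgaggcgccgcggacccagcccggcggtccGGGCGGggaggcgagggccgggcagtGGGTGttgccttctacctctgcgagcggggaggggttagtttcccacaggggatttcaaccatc
The KLF9 window lies directly upstream of the annotated gene and held 2 CCAAT boxes, 72 and 90 bases before the start, with a GC content of 32.4%. The KLF11 and KLF12 windows shown precede alternative starts inside the annotated genes. The one of KLF11 held 6 GC boxes and a cAMP response element 176 bases before the start, which overlaps a CACCC box, and the one of KLF12 held 4 GC boxes and 5 CACCC boxes, several of them overlapping. The other KLF11 window held 2 GC boxes and 0 cAMP response elements. The KLF12 window directly upstream of the annotated gene held 0 GC boxes, 0 CACCC boxes and 1 CCAAT box. Another KLF12 window held 5 CACCC boxes and 0 GC boxes, and the last held none of these motifs. GC boxes occurred in the windows of 7 of the 8 genes, against 42.6% of 35116 windows in the table. CACCC boxes occurred in 3 of the 8 genes against 54.7% of windows, CCAAT boxes in 4 against 32%, E-boxes in 3 against 6.3%, and the cAMP response element in 1 against 1.6%. Some of the 8 genes have several windows, so shares of genes and of windows are not alike. These are letter matches and not sites shown to be bound.

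In tumors given both drugs, KLF9, KLF10 and KLF11 were called lower than control and none of the 10 members was called higher. By group means, 6 of the 10 lay above control and 4 below. The falls were 0.57 for KLF9, 0.72 for KLF10 and 0.98 for KLF11 on the log2 scale, or 0.672, 0.609 and 0.508 times the control level. All 3 belong to the 5 members that recruit SIN3. The other members that recruit SIN3, KLF13 and KLF16, had log2 differences of 0.10 and 0.47, and neither passed. The 4 groups were fitted together with limma, with Benjamini-Hochberg adjustment over all genes and a threshold of 0.05. By that test 3 of the 10 members were called, against 2.47% of all genes (1.33% lower and 1.14% higher), and 5 had an unadjusted p under 0.05, against 13.9%. The combination tumors lay below all controls for those 3, as for 9.08% of all genes. KLF9 was chosen with its acadesine fall from these same control tumors known, so these counts, which hold KLF9, are a description. The median difference of the 10 members was 0.12, beside 0.00 for all genes. In bulk tumor RNA, fewer cells of a type and less RNA per cell cannot be told apart.

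**Figure D1:**
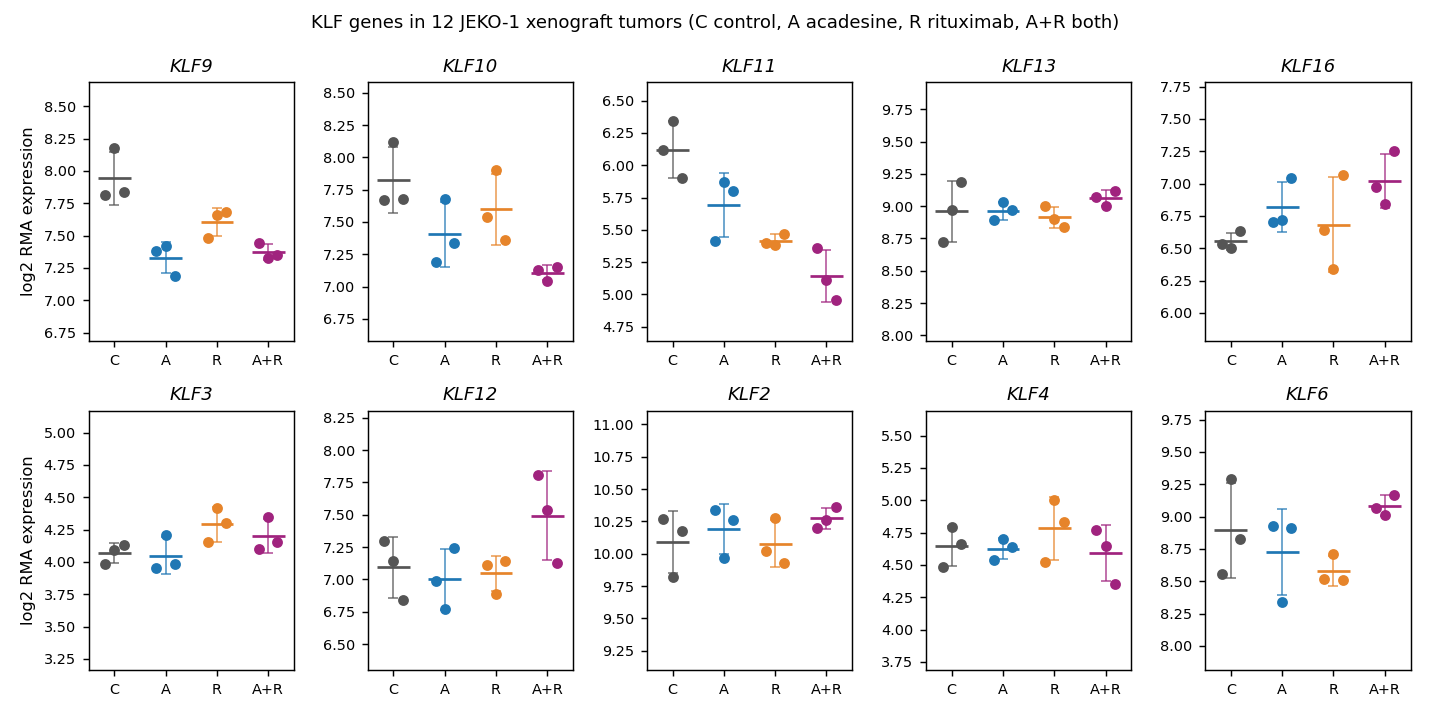
Log2 RMA expression of the 10 KLF genes in each of the 12 tumors (points), with group means (lines) and standard deviations (bars), for control (C), acadesine (A), rituximab (R) and both drugs (A+R), every panel spanning 2 log2 units. The 3 combination tumors lie below all control tumors for KLF9, KLF10 and KLF11, and overlap the control tumors for KLF2, KLF3, KLF4, KLF6, KLF12 and KLF13.

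KLF9, also called BTEB1, is a repressor that glucocorticoid and thyroid hormones induce in many tissues. Its log2 levels were 7.81, 8.18 and 7.84 in control tumors 1 to 3. They were 7.38, 7.42 and 7.19 in acadesine tumors, 7.48, 7.66 and 7.68 in rituximab tumors, and 7.44, 7.33 and 7.35 in combination tumors. The control tumors were thus the 3 highest of all 12, the rituximab tumors came next without overlap, and acadesine and combination tumors shared the lowest range. A separation downward of acadesine from rituximab was seen in 5.27% of all genes, and for KLF9 it rests on the acadesine values known when the gene was chosen. Group means were 7.94 ± 0.20 in control, 7.61 ± 0.11 in rituximab, 7.37 ± 0.06 in combination and 7.33 ± 0.12 in acadesine tumors (SD, n = 3 each). The fall with the combination had a standard error of 0.14 (95% interval from -0.86 to -0.29, adjusted p = 0.0271 from limma). It is measured against the same control tumors as the acadesine fall known at the choice, so its p is a description.

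After acadesine alone KLF9 was lower than control by a difference of -0.61 (standard error 0.14), a value known when the gene was chosen, so it is given as a description. After rituximab alone the difference was -0.34 (standard error 0.14, adjusted p = 1.00 from limma for KLF9). The combination differed from acadesine alone by 0.04 (95% interval from -0.24 to 0.33), which rests on the same acadesine tumors. The combination lay 0.24 log2 units under rituximab alone, with all tumors lower but an adjusted p of 0.467 from limma. The departure from additivity of KLF9 was 0.38 (standard error 0.19). It contains the acadesine difference that was known when KLF9 was chosen, and is given with no test. A second bright KLF9 probe set gave the same order of size, -0.57 after acadesine, -0.34 after rituximab and -0.68 after the combination. The last had a standard error of 0.17 and an adjusted p of 0.0457 over all probe sets from limma. That probe set was read in the same control tumors, so its p too is a description. The remaining KLF9 probe sets, with mean signals of 3.70 and 4.29, gave 0.21 and 0.20 for the combination. Leaving out control tumor 2, control tumor 3 or any single combination tumor ended the KLF9 call, with adjusted p from 0.0619 to 0.120 and differences from -0.62 to -0.46.

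KLF10 and KLF11 are the TGF-beta-inducible early genes, repressors that restrain growth in several cell types. KLF10 had log2 levels of 7.67, 8.12 and 7.68 in control tumors and of 7.13, 7.04 and 7.15 in combination tumors. The combination tumors were the 3 lowest of the 12 and lay within 0.11 of each other. Acadesine tumors were at 7.19, 7.68 and 7.34 and rituximab tumors at 7.54, 7.90 and 7.36, both overlapping control. KLF10 fell with the combination by 0.72 (standard error 0.17, 95% interval from -1.06 to -0.37, adjusted p = 0.0238 from limma). Its differences were -0.42 after acadesine alone (adjusted p = 0.596) and -0.22 after rituximab alone (adjusted p = 1.00). Against the single agents the combination lay -0.30 from acadesine (adjusted p = 0.426) and -0.49 from rituximab (adjusted p = 0.132), below every tumor of each in turn. The other KLF10 probe set gave -0.56 for the combination (adjusted p = 0.152), also with all 3 tumors under control. Omission of those same 5 tumors, control 2 or 3 or a combination tumor, also ended the KLF10 call, with adjusted p from 0.0530 to 0.114 (KLF10, limma).

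KLF11 showed the largest difference among the 10 members in the combination and the rituximab comparison. Its log2 levels were 6.12, 6.34 and 5.90 in control tumors, 5.41, 5.87 and 5.80 in acadesine tumors, 5.40, 5.38 and 5.47 in rituximab tumors, and 5.36, 5.11 and 4.96 in combination tumors. Every treated tumor lay below every control tumor, and every combination tumor below every tumor given a single agent. The fall with the combination was 0.98 (standard error 0.18, 95% interval from -1.35 to -0.61, adjusted p = 0.00442 from limma), and KLF11 stayed called without any one of the 12 tumors (adjusted p from 0.00334 to 0.0302). The single agents gave -0.43 for acadesine (adjusted p = 0.613) and -0.71 for rituximab (adjusted p = 1.00), the latter the tenth smallest p among all genes. The joint fall differed from the sum of the single falls by 0.15 (95% interval from -0.37 to 0.68). Against acadesine alone the combination was at -0.55 (standard error 0.18, adjusted p = 0.113), and against rituximab alone at -0.27 (adjusted p = 0.536). This KLF11 signal rests on 1 probe set, since the others had mean signals of 4.32 and 4.0 and gave 0.29 and -0.19.

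Neither single agent gave a called member. For acadesine limma called 0 of 18239 genes (0%), with 7.8% at an unadjusted p under 0.05, and KLF10 and KLF11 were among the latter. KLF9, whose acadesine value was known when it was chosen, is left out of that count. For rituximab limma again called 0 genes (0%), with 4.21% at an unadjusted p under 0.05, among them KLF9 and KLF11. All 3 acadesine tumors lay below all controls for KLF11 (5.95% of all genes), with KLF9 again left out of the count, and all 3 rituximab tumors likewise for KLF9 and KLF11 (4.56%). Upward, acadesine separated from control for KLF16 (6.91% of all genes) and rituximab for KLF3 (4.38%). The 3 treatments were compared with the same control tumors, so these values are not independent of each other. The rituximab counts that hold KLF9 are for that reason a description. The combination differed from acadesine in 2.45% of all genes and from rituximab in 2.82%, and limma called 0 members in either, with 3 members in each at an unadjusted p under 0.05 (15.3% and 14.6% of all genes). Against acadesine the combination tumors lay lower without overlap for KLF10 and KLF11 (10.8% of all genes) and higher for KLF6 (9.65%). Against rituximab they lay lower for KLF9, KLF10 and KLF11 (9.8%) and higher for KLF6 and KLF13 (10.4%). Between the single agents limma called 0 genes (0%), and 0 members had an unadjusted p under 0.05, against 7.73% of all genes. For the departure from additivity it called 0 members and 0.28% of all genes, with KLF6 and KLF12 among the 10.8% at an unadjusted p under 0.05.

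**Figure D2:**
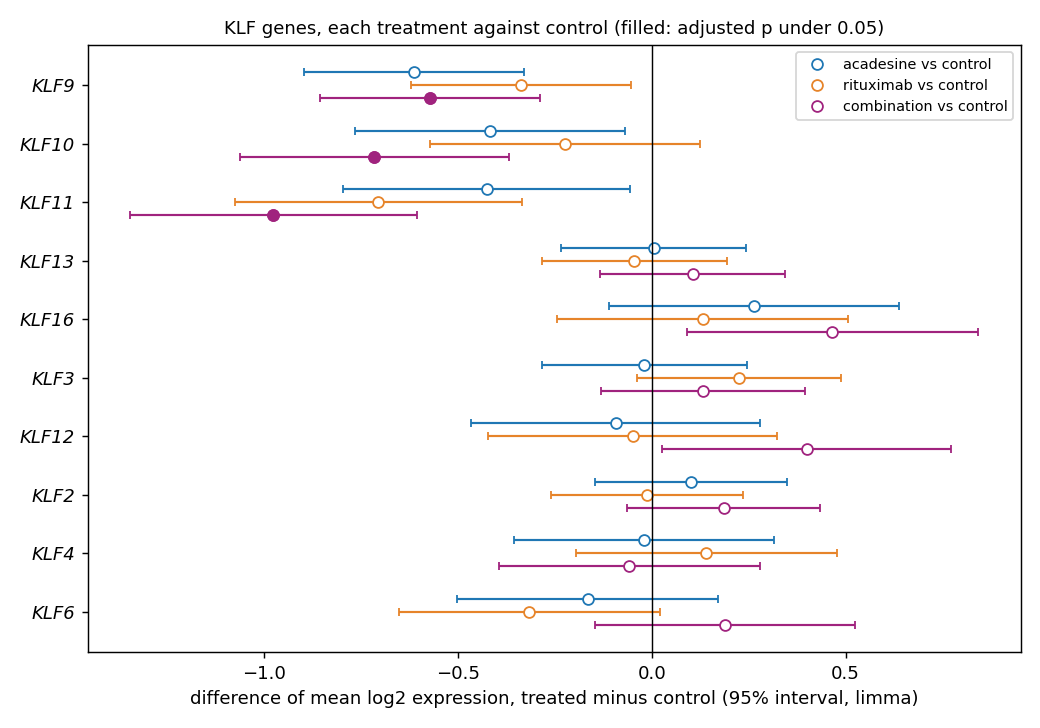
Difference of mean log2 expression, treated minus control, for each KLF gene and treatment, with 95% intervals from limma. Filled points, adjusted p under 0.05, are the combination values of KLF9, KLF10 and KLF11, and for KLF9 the acadesine value of -0.61 lies beside the combination value of -0.57.

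Of the other members that recruit SIN3, KLF13 activates the chemokine gene CCL5 in T cells, and KLF16 is known as a regulator of dopamine receptor genes. KLF16 had log2 levels of 6.53, 6.50 and 6.63 in control tumors and of 6.97, 6.84 and 7.25 in combination tumors, without overlap, a separation upward seen in 9.42% of all genes. Its difference of 0.47 (standard error 0.18) had an adjusted p of 0.217 from limma. Acadesine tumors, at 6.70, 6.72 and 7.04, also lay above all controls, while rituximab tumors spread from 6.34 to 7.07. The other KLF16 probe sets gave 0.35, 0.08 and 0.22 for the combination, all positive and none called. KLF13 varied little, from 8.72 to 9.19 over all tumors, and the combination lay 0.10 above control (95% interval from -0.13 to 0.34). Its second probe set gave -0.08.

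Of the members that recruit CtBP, KLF12 is known as a repressor of the gene of AP-2 alpha. Its brightest probe set read 7.30, 7.14 and 6.84 in control tumors and 7.81, 7.54 and 7.13 in combination tumors, with overlap, and a difference of 0.40 (standard error 0.18, adjusted p = 0.315 from limma). Another KLF12 probe set of nearly the same signal separated the groups. It read 6.93, 6.96 and 7.01 in control tumors, 6.68, 6.99 and 6.81 in acadesine tumors, 6.57, 6.83 and 6.67 in rituximab tumors, and 7.77, 7.56 and 7.41 in combination tumors. There the combination was the highest group without overlap and rose by 0.61 against control (standard error 0.15, adjusted p = 0.0343 over all probe sets from limma, which called 1.51% of them). It rose by 0.75 against acadesine (adjusted p = 0.0105, 1.42% of probe sets called) and by 0.89 against rituximab (adjusted p = 0.00217, 1.59% called). Of the 4 remaining KLF12 probe sets 3 were higher in the combination than in control, with 0.60, 0.15 and 0.44, and the other gave -0.03. Against control that rise lost its call without any one control tumor or without combination tumor 1 or 2 (adjusted p from 0.0637 to 0.185 for KLF12). Against acadesine it did so without acadesine tumor 1 or combination tumor 1 or 2 (adjusted p from 0.0580 to 0.0756), and against rituximab it held without each tumor. Against control, the called rise of KLF12 is thus a statement about 1 of its 6 probe sets. KLF3, which shapes B cell subsets in mice, had only dim probe sets, with its log2 level from 3.95 to 4.42 and a difference of 0.13 for the combination (95% interval from -0.13 to 0.40).

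**Figure D3:**
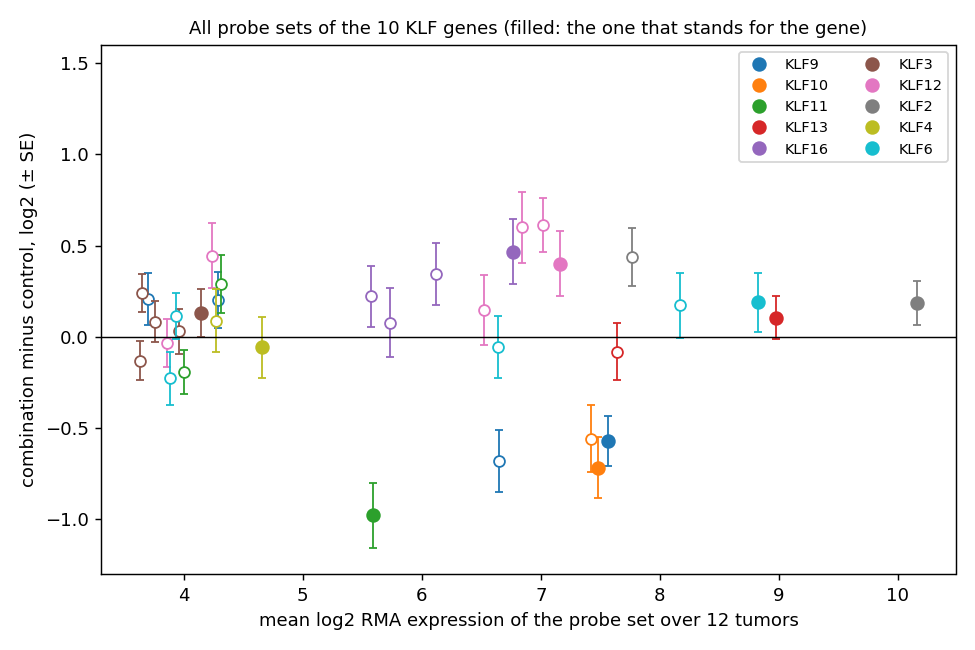
Combination minus control on the log2 scale (vertical axis, bars are standard errors) against the mean log2 signal over 12 tumors for all 35 probe sets of the 10 KLF genes, coloured by gene, with the probe set that stands for the gene filled. Both bright KLF9 probe sets and both KLF10 probe sets lie between -0.56 and -0.72, the KLF11 fall of -0.98 comes from 1 probe set, and the probe sets with a mean at or below 5 lie between -0.23 and 0.44.

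Of the activators, KLF2 read 10.27, 9.82 and 10.18 in control tumors and 10.2, 10.26 and 10.36 in combination tumors, with overlap. Its difference was 0.19 (95% interval from -0.06 to 0.43), and a second KLF2 probe set gave 0.44 (adjusted p = 0.212). KLF6, a widely expressed factor named as a tumor suppressor, read 8.56, 9.29 and 8.83 in control tumors, 8.93, 8.34 and 8.91 in acadesine tumors, 8.52, 8.71 and 8.51 in rituximab tumors, and 9.07, 9.01 and 9.17 in combination tumors. The combination tumors lay above every tumor given a single agent but inside the control range. KLF6 was 0.50 higher with the combination than with rituximab alone (standard error 0.16, adjusted p = 0.106 from limma), and its departure from additivity, 0.67 (standard error 0.23, adjusted p = 0.243), was the largest of the 10 members. Both missed the threshold, and other KLF6 probe sets gave 0.42 and 0.22 against rituximab among those with a mean signal over 5. KLF4, which halts the division of B cells in mice, was dim, with a log2 level from 4.35 to 5.0 and a combination difference of -0.06 (95% interval from -0.39 to 0.28).

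Of 7 measured KLF genes outside the members, KLF7, known for its part in the development of neurons, rose with the combination by 1.21 (standard error 0.19, adjusted p = 0.00150 from limma), the only one of the 7 called there and called without any one of the 12 tumors (adjusted p from 0.000345 to 0.0168). It read 7.22, 7.96 and 7.39 in control tumors, 7.44, 7.26 and 7.86 in acadesine tumors, 7.91, 7.24 and 7.41 in rituximab tumors, and 8.64, 8.76 and 8.80 in combination tumors. The first 3 groups shared a mean of 7.52 and the combination stood alone, 1.21 above each single agent (adjusted p = 0.00195 against acadesine and 0.00116 against rituximab). The departure of KLF7 from additivity was 1.22 (standard error 0.27) with an adjusted p of 0.0568 from limma. The other KLF7 probe sets gave 0.47, 0.75 and 0.62 for the combination, none of them called. KLF15, a metabolic regulator of muscle and liver, was higher in all 3 combination tumors, at 5.22, 5.08 and 5.31 against 4.61 to 4.80 in controls, with a difference of 0.49 that did not pass (adjusted p = 0.108). KLF1, KLF5, KLF8, KLF14 and KLF17 had mean signals from 3.87 to 4.30 and combination differences from -0.16 to 0.28, none called. Of the 9 genes of the related SP family limma called 0 with the combination. SP4 had a difference of -0.32 and an unadjusted p of 0.0326 from limma. The shares over all genes were 2.47% called and 13.9% at an unadjusted p under 0.05.

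Genes that act with or upstream of KLF factors were counted in lists written for this purpose. Over all genes 2.47% were called with the combination, and 13.9% had an unadjusted p under 0.05. Among 17 corepressors, coactivators and ubiquitin ligases, 9 lay below control with the combination and 8 above. Only RBBP7, a histone-binding part of the SIN3 complex, was called, lower by 0.36 (standard error 0.09, adjusted p = 0.0428 from limma). Its combination tumors were at 10.2, 10.2 and 10.23 and its controls at 10.8, 10.46 and 10.45. The RBBP7 call ended on leaving out any of 8 of the 12 tumors, namely control 1 or 3, acadesine 1 or 3, rituximab 3 or any combination tumor (adjusted p up to 0.234, without control tumor 1). SIN3A itself had 0.17 (adjusted p = 0.618). Of 8 genes of the ERK5 route and FOXO1, which drive KLF2 and KLF4, MEF2C fell by 0.94 (standard error 0.19, adjusted p = 0.00825), from 7.84 to 8.29 in controls to 6.78 to 7.41 in combination tumors. None of these 8 was called higher, while 6 of them lay above control, with a list median of 0.14. MEF2C was not called without control tumor 1 or 3 or combination tumor 2 (adjusted p from 0.0558 to 0.0703). Of 15 genes of TGF-beta signaling, the pathway that induces KLF10 and KLF11, SMAD3, a signal carrier, rose by 0.62 (standard error 0.13, adjusted p = 0.0141). None was called lower, with 13 of the 15 above control and a median of 0.15, beside 0.00 for all genes. Whether that list moved as a set was not tested. Of 10 genes of the glucocorticoid response, limma called 0 with the combination, with FKBP5 at -0.22 and ERRFI1 at -0.34 under an unadjusted p of 0.05. TSC22D3 (GILZ), a glucocorticoid-induced gene, had 0.32 against control (adjusted p = 0.432) and was called 0.66 higher with the combination than with rituximab (adjusted p = 0.0409), a call lost without any one rituximab tumor or combination tumor 1 or 3 (adjusted p from 0.0838 to 0.189). SMAD3 was not called without control tumor 3 or combination tumor 1 or 2 (adjusted p from 0.0649 to 0.103). The glucocorticoid list had medians of -0.16 after acadesine, -0.12 after rituximab and -0.06 after both, with 9, 8 and 5 of its 10 genes lower.

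Of 7 measured genes of lymphocyte homing tied to KLF2, CXCR5, a chemokine receptor that guides B cells to follicles, fell with the combination by 0.76 (standard error 0.14, adjusted p = 0.00433 from limma). No gene was called higher, with 6 of the 7 below control and 1 above. Over all genes 2.47% were called with the combination. The CXCR5 call held without any one tumor. CCR7, a chemokine receptor that guides cells into lymph nodes, had -0.74 after acadesine and -0.65 after the combination (adjusted p = 0.548 and 0.0547). Over the 12 tumors CCR7 was also the gene whose pattern was most like that of KLF9 among 9119 genes at or above the median level, with a Pearson correlation of 0.93 and a Spearman correlation of 0.94. CCR7 read 7.54, 8.17 and 8.03 in control, 7.38, 7.23 and 6.89 in acadesine, 7.31, 7.60 and 7.67 in rituximab and 7.51, 7.15 and 7.12 in combination tumors. With group means removed the Pearson correlation was 0.81. CCR7 was picked by its correlation in these same tumors, so this value is no separate check. The next were DPY19L1, THAP12, PTGR3 and NAMPT, with Pearson correlations from 0.87 to 0.89. The most opposite were ESRRA, a nuclear receptor of energy metabolism, with -0.90, TXNL4B with -0.90 and TAFAZZIN, an enzyme of cardiolipin, with -0.89. These correlations share the group differences and the normalization of the arrays. Among the members the Pearson correlation with KLF9 was 0.78 for KLF10 and 0.67 for KLF11, and between -0.59 and 0.34 for the rest. With group means removed it was 0.55 for KLF10 and 0.39 for KLF11, within the range of the rest, which ran from -0.60 for KLF2 to 0.60 for KLF4.

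**Figure D4:**
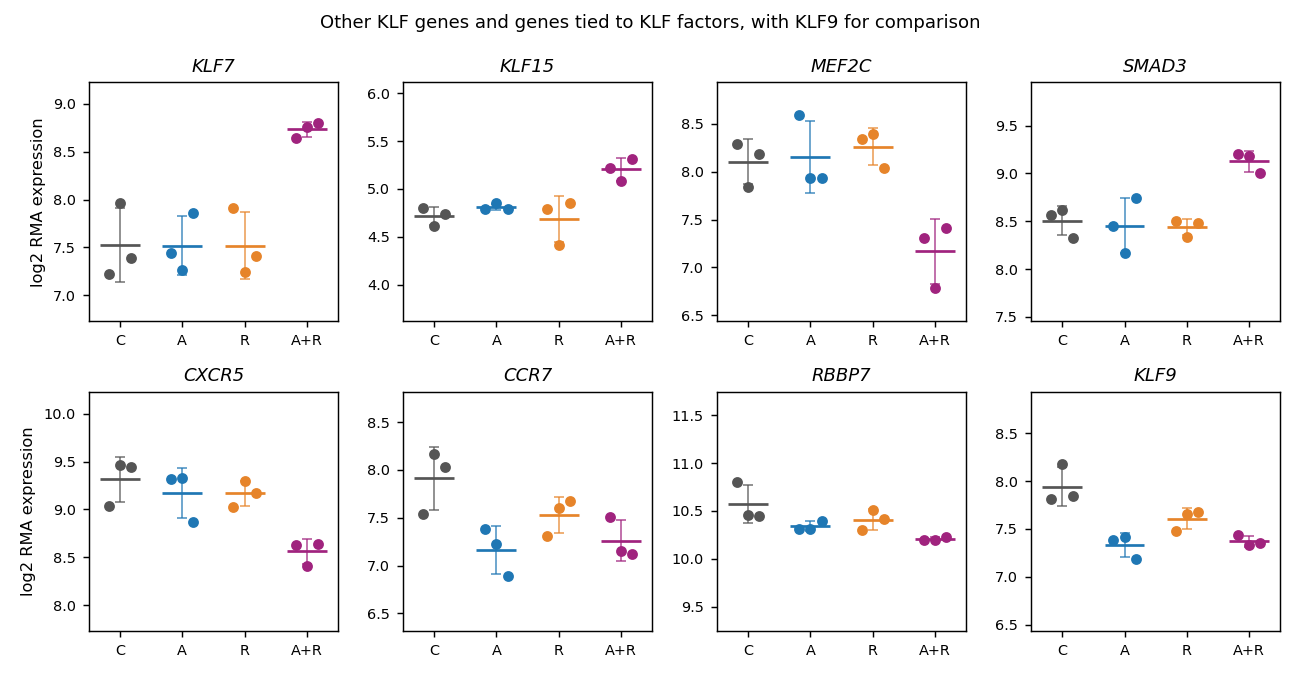
Log2 RMA expression of KLF7, KLF15 and genes tied to KLF factors in each tumor, with KLF9 repeated, drawn as in the plot of member levels with every panel spanning 2.5 log2 units. For KLF7, KLF15, MEF2C, SMAD3 and CXCR5 the other groups overlap and the 3 combination tumors stand apart, while CCR7 and KLF9 are already low after acadesine.

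Array medians lay between 4.59 and 4.66, and the correlation between arrays over genes between 0.989 and 0.996. The mean log2 level of 7 B cell and mantle cell lymphoma markers was 9.75 to 10.0 in all tumors, as a line of B cells has. Markers of endothelium, macrophages, fibroblasts, keratinocytes, adipocytes and T and NK cells had means between 4.03 and 4.92. The probes are human and the host cells are mouse, so these low means do not measure how much stroma the tumors held. Endothelium, which is rich in KLF2 and KLF4, had 4.76 to 4.80 in control tumors and 4.59 to 4.80 in combination tumors, with 5 of 8 markers lower and 0 called by limma. In that list PECAM1 read 9.35 to 10.09 over the tumors and the other markers only 3.45 to 4.69. The list mean thus leans on 1 gene, and which cells gave its signal was not tested. The fibroblast markers had 4.09 to 4.44 in control and 4.31 to 4.54 in combination tumors, with 6 of 8 higher. COL3A1 of that list rose with the combination by 0.72 (adjusted p = 0.00483 from limma). It was dim, at 3.76 to 4.06 in control and 4.44 to 4.86 in combination tumors. The 8 skeletal muscle markers had 4.41 to 4.58 in control tumors, 4.20, 7.11 and 5.68 in combination tumors 1 to 3, 5.18 in acadesine tumor 2 and 5.27 in rituximab tumor 2, with 4.75 as the highest of the others, and 7 of the 8 were higher with the combination than in control. Of these TNNI2, a troponin of fast muscle, rose by 1.99 (adjusted p = 0.0487 from limma), with 4.18, 7.76 and 6.90 in combination tumors 1 to 3 against 4.10 to 4.56 in controls. Its call held only without acadesine tumor 2 or combination tumor 1, among the 12 omissions. Of the lists with no call, the smallest p with the combination belonged to SOX11 of the B cell list (0.96, adjusted p = 0.0503), CD3G of T cells (0.66, adjusted p = 0.0769), PECAM1 of endothelium (-0.24, adjusted p = 0.369), CD163 of macrophages (-0.21, adjusted p = 0.621), KRT15 of keratinocytes (0.22, adjusted p = 0.606) and ADIPOQ of adipocytes (0.25, adjusted p = 0.471). The part of these other cell types in the KLF differences was not tested. Combination tumor 1, at 4.20 for the muscle markers, read 7.44 for KLF9, 7.13 for KLF10, 5.36 for KLF11 and 8.64 for KLF7. This is 1 tumor, and the part of muscle content in these values was not tested. Without the 4 tumors highest in muscle markers (acadesine 2, rituximab 2, combination 2 and 3) the combination differences were -0.51 for KLF9, -0.69 for KLF10 and -0.76 for KLF11, and limma called none of them (adjusted p = 0.493 for KLF9 and 0.267 for KLF10). KLF7 at 1.12 was not called either (adjusted p = 0.112), with 1 combination tumor left that is assumed to vary like the others.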

How the data were processed

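RNA of 12 JEKO-1 xenograft tumors was hybridised to 1 HT HG-U219 array per tumor. The authors deposited log2 RMA values (background correction, quantile normalization and median polish over the probes of each probe set), made in Bioconductor with a version that is not given in the sources used here. Values ranged from 3.09 to 14.3. Quantile normalization makes all arrays alike in distribution, so a shift of all genes would not show. Mouse transcripts may add signal at conserved probes. Of 49293 probe sets other than 93 controls, 45253 named 1 gene, 1327 several and 2713 none in the platform annotation, with symbols updated through Entrez identifiers. The probe set with the highest mean stood for each of 18239 genes, 6417 of which had 1.

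Groups came from the sample titles. The 4 groups entered 1 linear model (limma 3.58.1 under R 4.3.3, eBayes with trend) that gave 7 contrasts, and p values were adjusted by Benjamini-Hochberg over all genes. The model was tested on simulated data. The study used Rank Products, which permutes values over probe sets and was not run here. Its limits (FDR of 0.2, fold change of 1.4) were tried with limma. The median standard error against control was 0.135, and the number of tumors limits the precision. Whether tumors of a group were processed apart is not given in the sources used here, so p values measure only the spread between these tumors, which may be technical in part. The members and gene lists were chosen with earlier results of these data known. All members were named, and of other lists the genes called with the combination or else the smallest p. Some genes outside these, such as SIN3A, ERRFI1, TSC22D3 and KLF12's second probe set, were named after their values were seen. Alternatives were 2 other probe set rules, a filter on dim genes, 2 variance models, array weights, cyclic loess, median centring, the tumor number as a block, and leaving out each tumor in turn. Single probe sets and leaving out 4 tumors were added after the data were seen.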

Additional observations from a re-analysis of the deposited data

How the results depend on the processing

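With the combination against control, 3 members were called. The same 3, KLF9, KLF10 and KLF11, were called with a filter on dim genes, without the intensity trend, with robust eBayes, array weights, cyclic loess, median centring, the thresholds of the study and the replicate block, while the probe set with the largest variance left KLF10 and KLF11. With the mean of all probe sets of a gene 0 members were called (KLF9 -0.21, KLF10 -0.64, KLF11 -0.29). Dim probe sets enter that mean for KLF9 and KLF11, while both KLF10 probe sets were bright. Why the calls were lost was not tested for any of the 3. Leaving out each tumor in turn gave 1 to 3 members, KLF11 always among them, and without the 4 tumors high in muscle markers, an alternative chosen after seeing the data, 0. Single probe sets turned the direction for KLF9 (0.21 and 0.20) and KLF11 (0.29), all of them dim. For the combination against rituximab the count of 0 became 1 with the mean of probe sets (KLF12), 1 with array weights (KLF6), 2 at an adjusted p under 0.2 and a fold over 1.4 (KLF6 and KLF10), and 0 to 1 with a tumor left out (KLF6 without control tumor 2). For the combination against acadesine those thresholds gave 2 (KLF11 and KLF12). With the mean of probe sets RBBP7, MEF2C (-0.43), SMAD3 (0.17), CXCR5 (-0.44) and COL3A1 (0.23) were no longer called, and KLF7 was; RBBP7 also lost its call in 4 further settings, among them the replicate block (adjusted p = 0.0546), and none of the 6 was called without the 4 tumors, where TNNI2 turned to -0.11. TNNI2 and TSC22D3 each lost their call in 6 other settings. Over 1456 values of single members, which leave out the thresholds of the study, single probe sets and the omission of the 4 tumors, 14 lost a call, 3 gained one and 0 changed sign in a called result.

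The tumor numbers were not taken to pair the tumors, since not every same-numbered pair deviated together: 7 of 18 same-numbered pairs had deviations from group means that correlated over 0.1 (range -0.12 to 0.19), and 7 of 12 tumors correlated best with their own number, which is a hint from the data and no part of the design. With the replicate block 3 members were called with the combination and 481 genes in all, and the calls of members did not change. The count of 450 called genes, 242 lower and 208 higher, was 268 with the mean of probe sets, 303 with the most variable one, 261 without the trend, 665 at the thresholds of the study, 39 without the 4 tumors, and 140 to 576 with a tumor left out.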
